A study of Homo sapiens with 6 samples.

Results

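The 9 genes described here encode transcription factors that set and maintain the myeloid lineage. They were the rows of the count table whose symbol was SPI1, CEBPA, CEBPB, CEBPD, MAF, RUNX1, MYB, MYC or GFI1, and each symbol matched 1 of 61517 rows. All 9 passed the filter on low counts. They were measured by poly-A-selected RNA sequencing in the human monocytic leukaemia line THP-1, whose cells had been made to differentiate into macrophages and then given lipopolysaccharide (LPS) and ATP to set off pyroptosis, a lytic inflammatory cell death. The 3 ruxolitinib libraries came from cells that also received ruxolitinib, a JAK1 and JAK2 inhibitor that the treatment label spells Lukotinib, and the 3 control libraries from cells that received LPS and ATP without it. The sources used here state neither the dose of the drug nor the length of exposure nor what differentiated the cells. No unstimulated cells were analysed here. The comparison asks whether the lineage factors of these macrophages differed with JAK inhibition during pyroptotic stimulation.

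In the myeloid lineage, PU.1, RUNX1 and C/EBPα open the enhancers of monocytes and granulocytes. C/EBPβ and C/EBPδ act later and in inflammation, and the large MAF factors mark mature macrophages. MYB and MYC belong to proliferating precursors, and their transcripts normally decline as cells differentiate. GFI1 turns precursors towards granulocytes. THP-1 carries an MLL fusion, and as 1 cell line it stands for 1 leukaemia, so its levels are those of a line and not of blood monocytes.

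The 6 libraries held 17757595 to 24533979 counts. Genes detected numbered 21126 to 21412 in the ruxolitinib libraries and 21986, 22675 and 24798 in the control libraries, the most in control replicate 2, which was also the deepest. The summed level of 12 monocyte and macrophage markers was 502 to 551 CPM (counts scaled to a common library total) with ruxolitinib and 1052 to 1075 CPM in control. Among the defining markers of other blood cells, CD3E, CD3D, CD3G, HBB, PF4 and CEACAM8 were at 0 in every library, where 3 counts, the limit that a 0 permits, would be 0.119 to 0.169 CPM (counting error only). The 9 precursor markers summed to 7.12 to 8.29 CPM with ruxolitinib and 5.99 to 8.89 CPM in control, the 7 T and NK cell markers to 5.996 to 8.04 CPM with ruxolitinib and 10.9 to 12.9 CPM in control, and the 7 granulocyte markers to 97.5 to 113 CPM with ruxolitinib and 98.3 to 101 CPM in control.

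Of the 9 factors, SPI1 alone changed past an adjusted p of 0.05 (edgeR's quasi-likelihood test, Benjamini-Hochberg over 14051 genes), and it fell. That is 1 of 9, against 29.7% of all genes tested in either direction and 16.1% lower. SPI1 was also the 1 of 9 whose groups did not overlap, against 44.3% of all genes tested. The median log2 fold change of the 9 was 0.11, beside -0.01 over all genes tested. CEBPB, CEBPD, MYB and GFI1 had positive values between 0.26 and 0.42. RUNX1, MYC, CEBPA and MAF had values between -0.08 and 0.11, and none of these 8 passed the test with edgeR and all 6 libraries. With the batch label as a block, again 1 of 9 passed, against 20.7% of all genes tested. With DESeq2, 2 of 9 passed, SPI1 lower and CEBPB higher, against 23.9% of all genes tested. Without control replicate 2, 3 of 9 passed, SPI1 lower and CEBPB and CEBPD higher, against 29.9%, and without both libraries of batch 2 RUNX1 joined them, 4 of 9 against 35.6%.

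**Figure D1:**
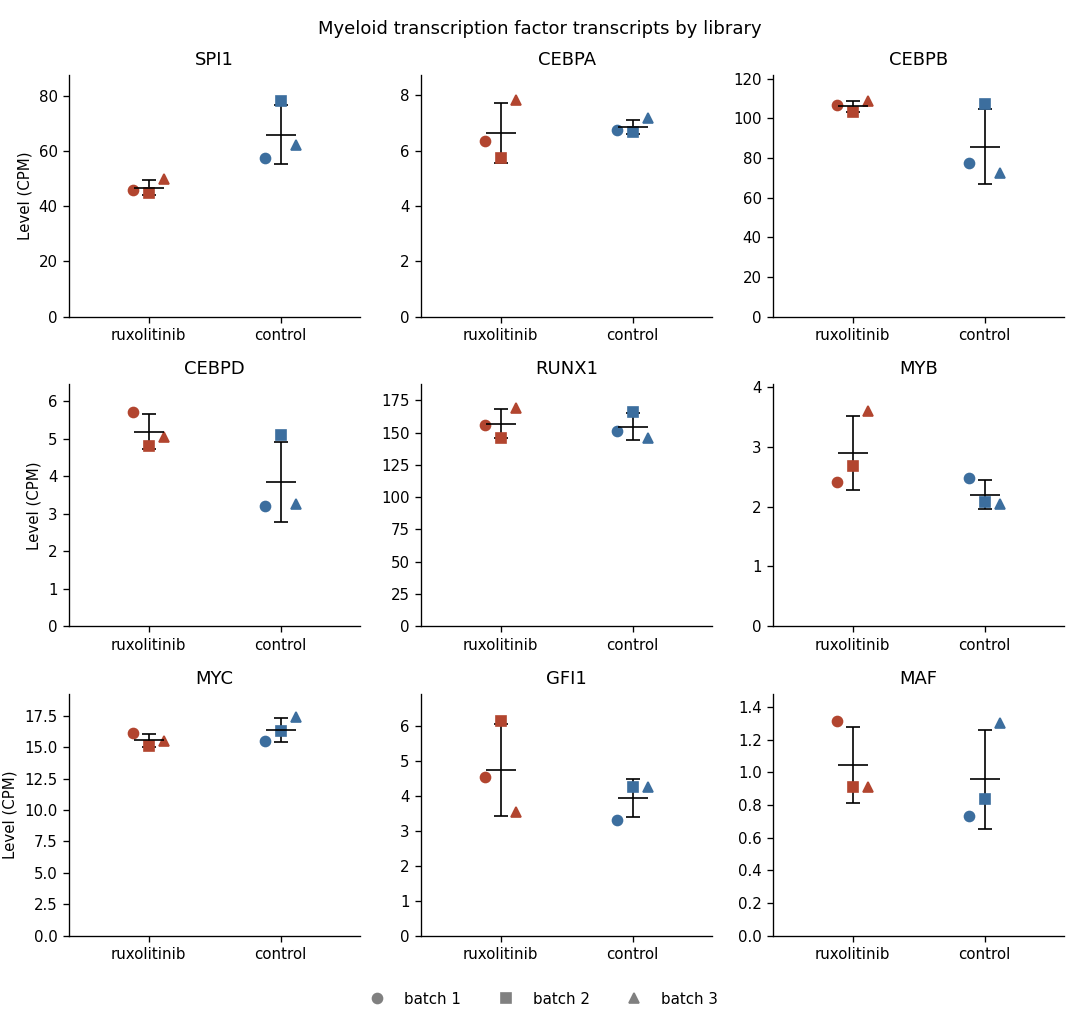
Level of each of the 9 factors (y axis, CPM, from 0) in the 3 ruxolitinib and the 3 control libraries, with 1 point per library, its shape giving the batch label, and the mean ± SD as bars. The groups are apart for SPI1, with 44.7 to 49.8 CPM with ruxolitinib and 57.5 to 78.0 CPM in control, and overlap for the other 8 factors.

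Per kilobase of exon, the order of the 9 factors by mean level was the same in both groups, and the neighbours whose ranges overlapped differed. With ruxolitinib, CEBPB led at 54.2 ± 1.41 CPM per kilobase, followed by SPI1 at 22.6 ± 1.29, RUNX1 at 10.1 ± 0.742 and MYC at 5.18 ± 0.170 (SD, n = 3). CEBPA at 2.52 ± 0.411 and CEBPD at 2.38 ± 0.215 CPM per kilobase overlapped there, and GFI1 at 1.44 ± 0.400, MYB at 0.527 ± 0.113 and MAF at 0.150 ± 0.0331 came last. In control, CEBPB at 43.8 ± 9.62 and SPI1 at 31.9 ± 5.19 CPM per kilobase overlapped, and CEBPD at 1.77 ± 0.494 lay below CEBPA at 2.61 ± 0.0980 in every library. GFI1 and MYB, at 1.19 ± 0.164 and 0.399 ± 0.0444 CPM per kilobase, were again near the bottom in control, and MAF was lowest at 0.137 ± 0.0435. These levels depend on the exon lengths of GENCODE 29, and the annotation that the authors counted on was not given in the sources used here.

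To show the DNA ahead of these genes, the 250 bases upstream of each RefSeq start (RefSeq, GRCh38.p14) were read for CEBPA, CEBPB, MAF, RUNX1, MYB and GFI1, 9 windows in all, and searched on both strands for 7 short motifs. No window of SPI1, CEBPD or MYC was searched, so the matches and their absence say nothing about these genes. The motifs were TTCNNNGAA (STAT), GAGGAAGT (PU.1), TTGCGCAA (C/EBP), TGTGGT (RUNX), CACGTG (MYC and MAX) and AACNGTT (MYB), with a composite interferon response element as the seventh. The only matches in the 9 windows were in the second GFI1 window, chr1:92486100-92486349 on the minus strand, which held the C/EBP and the RUNX letters. That window lies within the span of GFI1 in GENCODE 29. It is shown as the only window with a match, and the CEBPB window at chr20:50190333-50190582 on the plus strand, ahead of the annotated start of that gene, stands beside it as a window with none of the 7. Capitals mark the motif matches, in order C/EBP and RUNX.
GFI1 window 2: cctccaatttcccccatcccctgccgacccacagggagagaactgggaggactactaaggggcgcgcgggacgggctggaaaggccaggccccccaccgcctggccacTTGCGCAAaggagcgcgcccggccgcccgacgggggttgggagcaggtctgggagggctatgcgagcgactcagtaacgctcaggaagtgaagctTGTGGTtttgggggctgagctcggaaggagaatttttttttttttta
CEBPB window 1: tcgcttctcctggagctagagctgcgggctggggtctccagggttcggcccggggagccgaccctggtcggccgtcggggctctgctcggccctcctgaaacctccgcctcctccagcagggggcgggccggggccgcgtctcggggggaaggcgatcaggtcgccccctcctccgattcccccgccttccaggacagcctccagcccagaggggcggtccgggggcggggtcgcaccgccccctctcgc

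Of 35116 RefSeq windows of this length, 0.131% held TTGCGCAA and 11% held TGTGGT. The STAT letters TTCNNNGAA were in 6.57% of all windows, the interferon response element in 3.02%, the PU.1 letters in 2.17%, the MYC and MAX letters in 6.34% and the MYB letters in 2.95%. A match is a description of the letters and not a bound site, and GFI1 itself did not pass the test below. The windows are GC-rich, with 62.4% GC in the GFI1 window and 75.6% in the CEBPB window, a property that the transcripts of several of these genes share.

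SPI1 (ENSG00000066336, chromosome 11, 47354860 to 47378576, minus strand) encodes PU.1, the ETS factor without which monocytes and granulocytes do not form. It was at 45.9, 44.7 and 49.8 CPM in ruxolitinib replicates 1 to 3, against 57.5, 78.0 and 62.4 CPM in control replicates 1 to 3. Every ruxolitinib library lay below every control library, and control replicate 2 was the highest of the 6. The means were 46.8 ± 2.68 CPM with ruxolitinib and 66.0 ± 10.7 CPM in control (SD, n = 3 each), a log2 fold change of -0.50 ± 0.11 (SE, edgeR adjusted p = 0.0117), or a fold of 0.707 with a 95% interval of 0.591 to 0.846. Within the batch pairs that the labels give, the log2 ratios were -0.33, -0.80 and -0.32, lower with ruxolitinib in 3 of 3 pairs. In bulk RNA, fewer cells expressing SPI1 and less SPI1 RNA per cell cannot be told apart.

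The fall of SPI1 lost its call in 2 of 20 alternatives, without both libraries of batch 3 (-0.59, edgeR adjusted p = 0.0575) and without ruxolitinib replicate 2 (-0.47, edgeR adjusted p = 0.0893), and the adjusted p over all 20 ran from 1.44e-12 to 0.0893. Its log2 fold change kept its sign in all 20, between -0.66 and -0.33. Without control replicate 2, the library with the highest SPI1, the log2 fold change was -0.36 ± 0.07 (edgeR adjusted p = 7.96e-04).

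The genes whose pattern over the 6 libraries was most like that of SPI1, among 12554 genes with a mean of at least 1 CPM, were EXOC7 and SLC37A2. Likeness was the root mean square difference of centred log2 CPM, 0.025 for EXOC7 and 0.032 for SLC37A2, against a median of 0.312 over the genes compared. EXOC7, a subunit of the exocyst that tethers secretory vesicles, was at 39.9, 38.5 and 43.6 CPM with ruxolitinib and 50.6, 70.3 and 53.2 CPM in control. SLC37A2, a sugar-phosphate transporter gene of macrophages, was at 33.3, 31.4 and 36.9 CPM with ruxolitinib and 41.0, 54.2 and 45.4 CPM in control. In both, as in SPI1, control replicate 2 was the highest library and ruxolitinib replicate 3 the highest of its group. As both genes were chosen for likeness over these same 6 libraries, the shared order follows from the choice.

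CEBPA (ENSG00000245848, chromosome 19, 33299934 to 33302564, minus strand) encodes C/EBPα, which commits precursors to the granulocyte and monocyte fate. It was at 6.35, 5.73 and 7.83 CPM with ruxolitinib and 6.75, 6.68 and 7.16 CPM in control. The ruxolitinib libraries lay on both sides of the 3 control libraries. The means were 6.63 ± 1.08 CPM with ruxolitinib and 6.86 ± 0.258 CPM in control (SD, n = 3 each), and the log2 fold change of -0.05 ± 0.14 had a 95% interval of -0.35 to 0.25 (edgeR adjusted p = 0.824). An antisense gene that overlaps CEBPA, ENSG00000267580, held 564 counts over the 6 libraries against 827 for CEBPA, and without a stated strand setting reads of the 2 genes cannot be told apart.

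CEBPB (ENSG00000172216, chromosome 20, 50190734 to 50192689, plus strand) encodes C/EBPβ, an inducible factor of activated macrophages. It was at 107, 103 and 109 CPM with ruxolitinib and 77.7, 107 and 72.3 CPM in control. The 3 ruxolitinib libraries were close together, while control replicate 2 lay among them and the other 2 control libraries lay below. The means were 106 ± 2.75 CPM with ruxolitinib and 85.8 ± 18.8 CPM in control (SD, n = 3 each), and the log2 fold change of 0.30 ± 0.16 did not pass (95% interval -0.09 to 0.69, edgeR adjusted p = 0.216). Within batch pairs the log2 ratios were 0.46, -0.06 and 0.59. Without control replicate 2 the log2 fold change was 0.50 ± 0.06 (edgeR adjusted p = 8.3e-06). With all 6 libraries kept it passed with DESeq2 (0.32, adjusted p = 0.0120), and in all 6 of 20 alternatives passed, with adjusted p-values from 1.21e-10 to 0.553 over the 20.

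CEBPD (ENSG00000221869, chromosome 8) encodes C/EBPδ, an early inflammatory C/EBP whose gene is a known STAT3 target. It was at 5.72, 4.82 and 5.04 CPM with ruxolitinib and 3.21, 5.09 and 3.25 CPM in control, the same arrangement as CEBPB. Control replicate 2 again lay within the ruxolitinib range and the other 2 control libraries below it. The means were 5.19 ± 0.468 CPM with ruxolitinib and 3.85 ± 1.08 CPM in control (SD, n = 3 each), and the log2 fold change of 0.42 ± 0.19 did not pass (fold interval 0.999 to 1.78, edgeR adjusted p = 0.126). Without control replicate 2 it was 0.68 ± 0.17 (edgeR adjusted p = 0.00673), and 2 of 20 alternatives passed, with adjusted p-values from 0.00209 to 0.589.

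SPI1, CEBPA, CEBPB and CEBPD had a GC content of 65.1%, 65.9%, 66.2% and 70.02% in their longest GENCODE 29 transcript, which placed them at percentiles 98.2, 98.8, 98.9 and 99.9 of the genes tested. Control replicate 2 departed from the other 2 control libraries with GC content. The median log2 deviation of its genes was -0.06 below 40% GC, 0.02 at 50 to 55%, 0.37 at 60 to 65% and 0.54 above 65%, the last over 245 genes. The single values in control replicate 2 were 0.38 for SPI1, 0.52 for CEBPB and 0.66 for CEBPD, near that trend, and -0.06 for CEBPA, away from it. No ruxolitinib library had a median beyond 0.144 in size from the other 2 of its group in any GC bin. These deviations are within a group and do not show a difference between groups. The median log2 difference, ruxolitinib minus control, was -0.03 below 40% GC, 0.09 at 60 to 65% and 0.18 above 65%. The other 5 factors had a GC content of 43.9% to 56.1%, where the medians of control replicate 2 lay between -0.05 and 0.15.

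**Figure D2:**
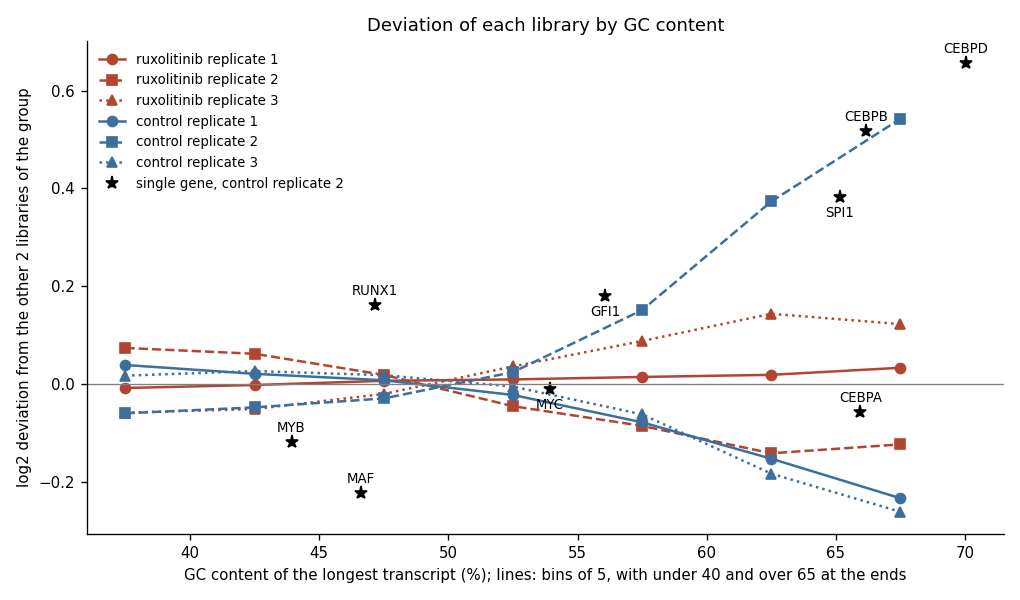
Median log2 deviation of each library from the other 2 of its group (y axis) in bins of transcript GC content (x axis, percent), with stars for the deviation of each factor in control replicate 2. The line of control replicate 2 climbs to 0.54 above 65% GC, and the stars of SPI1, CEBPB and CEBPD lie near it.

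A correction that removed the GC trend of each library, chosen after the values had been seen, narrowed the control spread of 3 of the 4 GC-rich factors. It also removes any real difference between the groups that runs with GC content. The corrected level of SPI1 was 44.4 ± 1.56 CPM with ruxolitinib and 68.0 ± 4.79 CPM in control, a log2 fold change of -0.61 ± 0.06 (edgeR adjusted p = 1.19e-06). That of CEBPB was 100 ± 5.21 CPM with ruxolitinib and 88.1 ± 2.36 CPM in control, and its log2 fold change of 0.18 ± 0.05 passed (edgeR adjusted p = 0.00962), at a smaller size than the 0.30 without correction. That of CEBPD was 4.78 ± 0.424 CPM with ruxolitinib and 4.003 ± 0.107 CPM in control, with a log2 fold change of 0.26 ± 0.14 that did not pass (edgeR adjusted p = 0.181). With control replicate 2 also left out, the corrected log2 fold change of CEBPB was 0.17 (edgeR adjusted p = 0.0293), against 0.50 uncorrected. For CEBPD it was 0.23 (edgeR adjusted p = 0.336), against 0.68 uncorrected. The control spread of CEBPA widened, with 6.23 ± 0.588 CPM with ruxolitinib and 7.28 ± 1.62 CPM in control (-0.19 ± 0.16, edgeR adjusted p = 0.391, and -0.40 with adjusted p = 0.0303 when control replicate 2 was also left out). After correction 2 of 9 factors passed, SPI1 and CEBPB, against 33.8% of all genes tested.

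**Figure D3:**
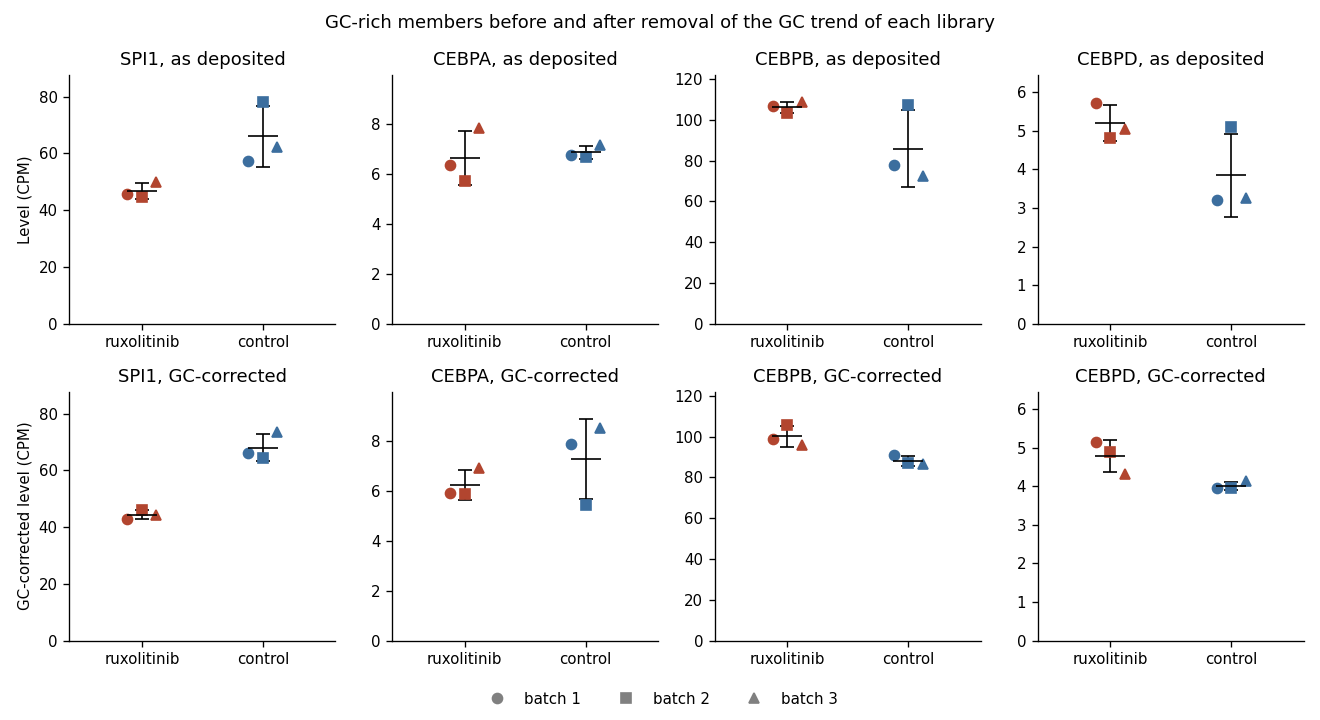
Levels of the 4 GC-rich factors (y axis, CPM, from 0) per library with mean ± SD, from the deposited counts above and after removal of the GC trend below. The square of control replicate 2 stands above the other control points of SPI1, CEBPB and CEBPD in the upper panels and falls among or below them in the lower panels.

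RUNX1 (ENSG00000159216, chromosome 21, 34787801 to 36004667, minus strand) encodes a factor that blood stem cells need and that binds beside PU.1 in myeloid enhancers. It was at 156, 146 and 169 CPM with ruxolitinib and 151, 166 and 146 CPM in control. The 2 groups covered nearly the same range, with means of 157 ± 11.6 CPM with ruxolitinib and 154 ± 10.5 CPM in control (SD, n = 3 each). The log2 fold change of 0.02 ± 0.06 had a 95% interval of -0.12 to 0.16 (edgeR adjusted p = 0.828). Leaving out both libraries of batch 2 gave 0.13 with an edgeR adjusted p of 0.0424, 1 of 20 alternatives, over which the adjusted p ran up to 0.988.

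MAF (ENSG00000178573, chromosome 16, 79585843 to 79600714, minus strand) encodes c-MAF, a large MAF factor of resident macrophages that promotes IL10 and CD163. It had 25, 17 and 17 counts with ruxolitinib and 13, 21 and 30 counts in control, or 1.31, 0.910 and 0.912 CPM with ruxolitinib against 0.731, 0.835 and 1.30 CPM in control. The libraries interleaved, and the log2 fold change of 0.11 ± 0.32 had a 95% interval of -0.58 to 0.81 (edgeR adjusted p = 0.824).

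MYB (ENSG00000118513, chromosome 6, 135181315 to 135219173, plus strand) encodes c-MYB, which keeps precursors cycling. It was at 2.41, 2.68 and 3.59 CPM with ruxolitinib and 2.48, 2.07 and 2.04 CPM in control. Ruxolitinib replicates 2 and 3 lay above all control libraries and replicate 1 below control replicate 1. The means were 2.89 ± 0.620 CPM with ruxolitinib and 2.19 ± 0.244 CPM in control (SD, n = 3 each), and the log2 fold change of 0.41 ± 0.21 did not pass (95% interval -0.05 to 0.86, edgeR adjusted p = 0.170). It was positive in all 20 alternatives, between 0.17 and 0.61, and passed in 0 of them, with a lowest adjusted p of 0.128.

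GFI1 (ENSG00000162676, chromosome 1, 92474762 to 92486876, minus strand) encodes a zinc finger repressor that turns precursors towards granulocytes and opposes PU.1. It was at 4.56, 6.16 and 3.54 CPM with ruxolitinib and 3.32, 4.26 and 4.25 CPM in control. Ruxolitinib replicate 2 was the highest library, and replicate 3 lay within the control range. The means were 4.75 ± 1.32 CPM with ruxolitinib and 3.94 ± 0.540 CPM in control (SD, n = 3 each), and the log2 fold change of 0.26 ± 0.20 had a 95% interval of -0.18 to 0.70 (edgeR adjusted p = 0.373).

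MYC (ENSG00000136997, chromosome 8) encodes c-MYC, a driver of growth and ribosome synthesis. It was at 16.1, 15.1 and 15.4 CPM with ruxolitinib and 15.5, 16.3 and 17.4 CPM in control. The 6 values lay close together and interleaved, with means of 15.5 ± 0.510 CPM with ruxolitinib and 16.4 ± 0.947 CPM in control (SD, n = 3 each). The log2 fold change was -0.08 ± 0.08, with a 95% interval of -0.26 to 0.10 (edgeR adjusted p = 0.532), the narrowest interval of the 9 after RUNX1. MYC and GFI1 did not pass in any of the 20 alternatives, and MAF in none of the 19 that kept it.

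**Figure D4:**
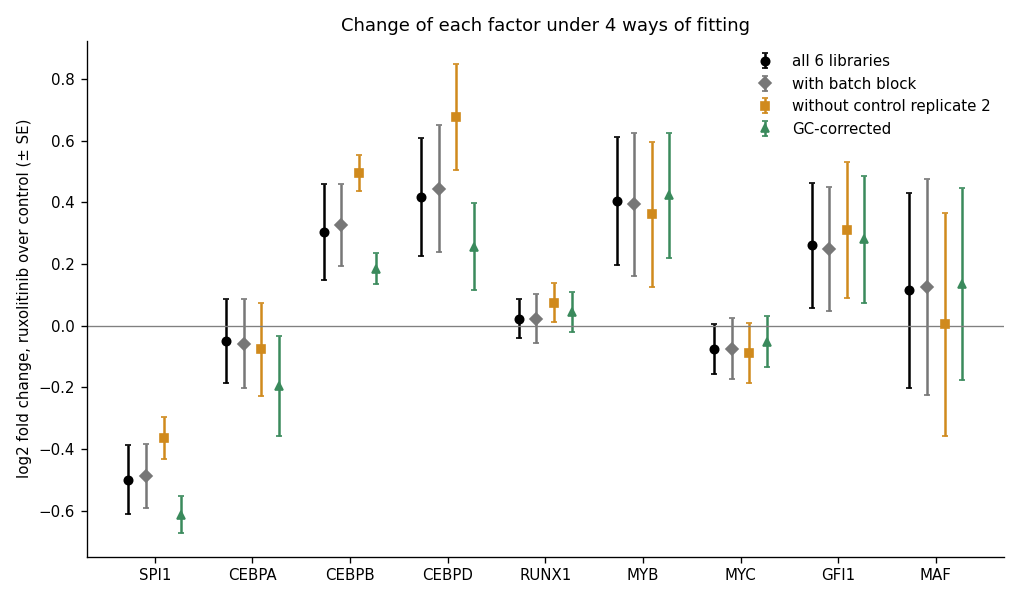
Log2 fold change of ruxolitinib over control (y axis, ± SE) for each factor from all 6 libraries, with the batch label as a block, without control replicate 2 and after GC correction. SPI1 stays below 0 in the 4 fits, from -0.36 to -0.61, while CEBPB runs from 0.18 to 0.50 and CEBPD from 0.26 to 0.68.

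The balance between related factors was followed as 6 ratios of counts within a library, which need no scaling between libraries. The CEBPB to CEBPA ratio, which is known to rise in emergency granulopoiesis, was 16.8, 18 and 13.9 with ruxolitinib and 11.5, 16.0 and 10.1 in control, higher with ruxolitinib in 3 of 3 batch pairs although the groups overlapped (log2 difference 0.39, exact two-sided permutation p = 0.2). In control replicate 2, CEBPB deviated from the rest of its group by 0.52 on the log2 scale and CEBPA by -0.06. Reads of CEBPA also cannot be told apart from those of its antisense gene, and this ratio carries both limits. The RUNX1 to RUNX2 ratio was 6.22, 5.59 and 6.21 with ruxolitinib and 4.83, 5.15 and 4.73 in control, higher with ruxolitinib in 3 of 3 pairs (log2 difference 0.29, exact permutation p = 0.1). The ratio of MYC to its antagonist MXD1 was 0.117, 0.116 and 0.107 with ruxolitinib and 0.0836, 0.0911 and 0.0973 in control, also higher in 3 of 3 pairs and without overlap (log2 difference 0.32, exact permutation p = 0.1). An exact p of 0.1 is the smallest that 3 against 3 allows, and adjusted over the 6 ratios every p was 0.3. The ratio of CEBPB to CEBPD had a log2 difference of -0.13 (exact two-sided permutation p = 0.3) and that of MYC to MYB one of -0.46 (exact two-sided permutation p = 0.2).

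Relatives and partners of the factors were counted in 7 lists. Of 8 tested ETS factors other than PU.1, 3 fell and 1 rose, 50% beside 29.7% of all genes tested. Their median log2 fold change was -0.18 beside -0.01 over all genes. ELF1 fell to 93.8 ± 1.47 CPM with ruxolitinib, against 131 ± 7.58 CPM in control (-0.49 ± 0.05, edgeR adjusted p = 2.6e-05), a change of about the size of that of SPI1. ELF4 (-0.35) and the repressor ETV6 (-0.33) fell, and ETS1, best known in lymphocytes, rose to 641 ± 18.6 CPM with ruxolitinib, against 507 ± 17.0 CPM in control (0.34 ± 0.05). The calls of these 4 genes held in all 20 alternatives.

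The 6 members of the C/EBP family and partner list (CEBPE, CEBPG, DDIT3, ATF4, TRIB1 and TRIB2) gave 0 calls with edgeR, DESeq2 and limma-voom. That stands beside 29.7% of all genes tested with edgeR, where 2 of the 6 had an unadjusted p under 0.05 and the median was 0.00. Upper-quartile scaling gave 2 higher. After GC correction 1 was higher, with control replicate 2 kept or left out, and 1 was higher without both libraries of batch 2. Of 5 MAF family genes, 2 fell and 3 did not pass, 40% beside 29.7% of all genes tested. The call of BACH1 (-0.15 ± 0.05, edgeR adjusted p = 0.046), a repressor that pairs with small MAF proteins, was lost in 14 of 20, the batch block among them.

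Of 5 RUNX genes and cofactors 1 rose and 1 fell, 40% beside 29.7% of all genes tested. RUNX2, known for bone, was at 26.1 ± 1.09 CPM with ruxolitinib and 31.5 ± 0.737 CPM in control (-0.27 ± 0.06, edgeR adjusted p = 0.0079), and the corepressor gene RUNX1T1 at 1.52 ± 0.133 CPM with ruxolitinib and 0.688 ± 0.146 CPM in control (1.15 ± 0.28, edgeR adjusted p = 0.0085). Without both libraries of batch 1 both calls were lost, with edgeR adjusted p-values of 0.137 for RUNX2 and 0.0600 for RUNX1T1. The call of RUNX2 was also lost without ruxolitinib replicate 1, and that of RUNX1T1 without both libraries of batch 3, each 2 of 20 alternatives. Of 9 MYC network genes 1 rose and 1 fell, 22.2% beside 29.7% of all genes tested. MXD1, which competes with MYC for MAX, fell to 137 ± 7.32 CPM with ruxolitinib, against 181 ± 3.87 CPM in control (-0.39 ± 0.05, edgeR adjusted p = 9.4e-05). MXD4 had 15.2 ± 0.799 CPM with ruxolitinib and 11.8 ± 2.02 CPM in control (0.36 ± 0.12, edgeR adjusted p = 0.038), a call lost in 8 of 20 alternatives, the batch block among them (adjusted p = 0.0791).

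Of 6 GFI1 corepressor genes 2 rose and 4 did not pass, 33.3% beside 29.7% of all genes tested. The histone deacetylase gene HDAC3 rose to 62.4 ± 2.53 CPM with ruxolitinib, against 48.1 ± 2.23 CPM in control (0.37 ± 0.06, edgeR adjusted p = 4.2e-04). HDAC1 rose by less (0.17 ± 0.05), and its call was lost in 4 of 20 alternatives, the batch block among them (edgeR adjusted p = 0.0842). Of 4 MYB relatives and coactivators, 1 rose and 1 fell, 50% beside 29.7% of all genes tested. The acetyltransferase gene EP300 fell to 65.5 ± 5.12 CPM with ruxolitinib, against 79.7 ± 1.55 CPM in control (-0.28 ± 0.06, edgeR adjusted p = 0.0039). The cell-cycle factor MYBL2 had 1.26 ± 0.115 CPM with ruxolitinib and 0.591 ± 0.134 CPM in control (1.06 ± 0.30, edgeR adjusted p = 0.018), a call lost in 6 of 20 alternatives.

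Other blood-cell factors changed in both directions, 5 higher and 8 lower of 22 tested, with a median of 0.01. That is 59.1% beside 29.7% of all genes tested. BCL6, a repressor of lymphocytes and macrophages, fell to 185 ± 13.9 CPM with ruxolitinib, against 315 ± 26.4 CPM in control (-0.77 ± 0.07). TFEC, a macrophage factor of the MITF group, fell to 122 ± 1.72 CPM with ruxolitinib, against 178 ± 2.71 CPM in control (-0.54 ± 0.04), and MEF2A fell by 0.46 on the log2 scale. IRF8, which pairs with PU.1 on monocyte enhancers, rose to 17.5 ± 0.489 CPM with ruxolitinib, against 10.3 ± 0.373 CPM in control (0.76 ± 0.09, edgeR adjusted p = 3.5e-05). The other factors that rose, named after their values were seen, were the inhibitors of DNA binding ID3 (1.03) and ID2 (0.32), TCF4 (0.46) and IKZF1 (0.20), of which IKZF1 lost its call in 3 of 20 alternatives, the batch block among them. More factors fell than rose, and those that fell besides BCL6, TFEC and MEF2A are not named here.

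Target genes were counted in 6 lists of genes known to be bound or driven by the factors. Of 20 genes of myeloid receptors, oxidase subunits and other targets of PU.1 and C/EBP factors, 14 fell, 1 rose and 5 did not pass, beside 29.7% of all genes passing, with a median of -0.71. CYBB, the catalytic subunit of the phagocyte oxidase, fell to 30.0 ± 1.74 CPM with ruxolitinib, against 65.1 ± 1.96 CPM in control (-1.12 ± 0.06, edgeR adjusted p = 6.1e-08). CD68, a lysosomal macrophage marker, fell by 1.099 and the LPS co-receptor CD14 by 0.78 on the log2 scale. The 1 gene that rose, named after its value was seen, was LYZ (0.20 ± 0.07, edgeR adjusted p = 0.036), whose call was lost in 12 of 20 alternatives. Several of these genes are also among the 12 macrophage markers whose sum was 502 to 551 CPM with ruxolitinib and 1052 to 1075 CPM in control, and the part of the cells' macrophage character in these falls was not tested.

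Of 15 tested inflammatory targets of C/EBP factors, 6 rose and 5 fell, 73.3% beside 29.7% of all genes tested, with a median of 0.16. CCL2, the monocyte chemokine, fell to 5.58 ± 0.589 CPM with ruxolitinib, against 68.0 ± 2.19 CPM in control (-3.61 ± 0.08, edgeR adjusted p = 7.4e-12). IL6 was lower at 20.0 ± 0.589 CPM with ruxolitinib, against 30.3 ± 0.857 CPM in control (-0.60 ± 0.07), as was complement C3 (-0.77 ± 0.08). PTGS2, the inducible cyclooxygenase, rose to 1026 ± 12.8 CPM with ruxolitinib, against 676 ± 36.02 CPM in control (0.60 ± 0.05, edgeR adjusted p = 2.0e-06). The direction therefore differed between targets of the same factors. Of 6 tested granule genes, which C/EBPα, GFI1 and MYB control in promyelocytes, 0 passed with edgeR, DESeq2 and limma-voom, beside 29.7% of all genes with edgeR. In edgeR 2 had an unadjusted p under 0.05. With upper-quartile scaling 1 was higher, and 1 after GC correction, with control replicate 2 kept or left out.

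Of 29 tested MYC target genes 5 rose, 3 fell and 21 did not pass, 27.6% beside 29.7% of all genes, with a median of 0.03. LDHA, lactate dehydrogenase A, rose to 1702 ± 98.5 CPM with ruxolitinib, against 1153 ± 51.1 CPM in control (0.56 ± 0.05), and ODC1, the first enzyme of polyamine synthesis, rose by 0.50 on that scale. CDK4 fell by 0.28 on the log2 scale. The nucleolar gene NOP58 rose (0.35 ± 0.07), a call lost without both libraries of batch 1 (edgeR adjusted p = 0.0619), and with the batch as a block the counts over the list were 4 higher and 1 lower.

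Of 13 MAF targets in the count table, only 4 passed the filter on low counts, so most of this list was not tested. Of the 4 tested MAF targets, 1 fell, the haemoglobin receptor CD163, at 1.88 ± 0.388 CPM with ruxolitinib and 3.92 ± 0.701 CPM in control (-1.05 ± 0.21, edgeR adjusted p = 0.0030). Of 10 tested MYB targets, among which the list counts MYC and GFI1, 1 rose, ADA, adenosine deaminase (0.35 ± 0.11, edgeR adjusted p = 0.031), and its call was lost in 8 of 20 alternatives. Of the MYB targets 10% passed and of the MAF targets 25%, beside 29.7% of all genes tested. The median of the MYB targets was 0.28, beside -0.01 over all genes. MYB itself, at 0.41, did not pass, and whether its targets follow it was not tested.

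**Figure D5:**
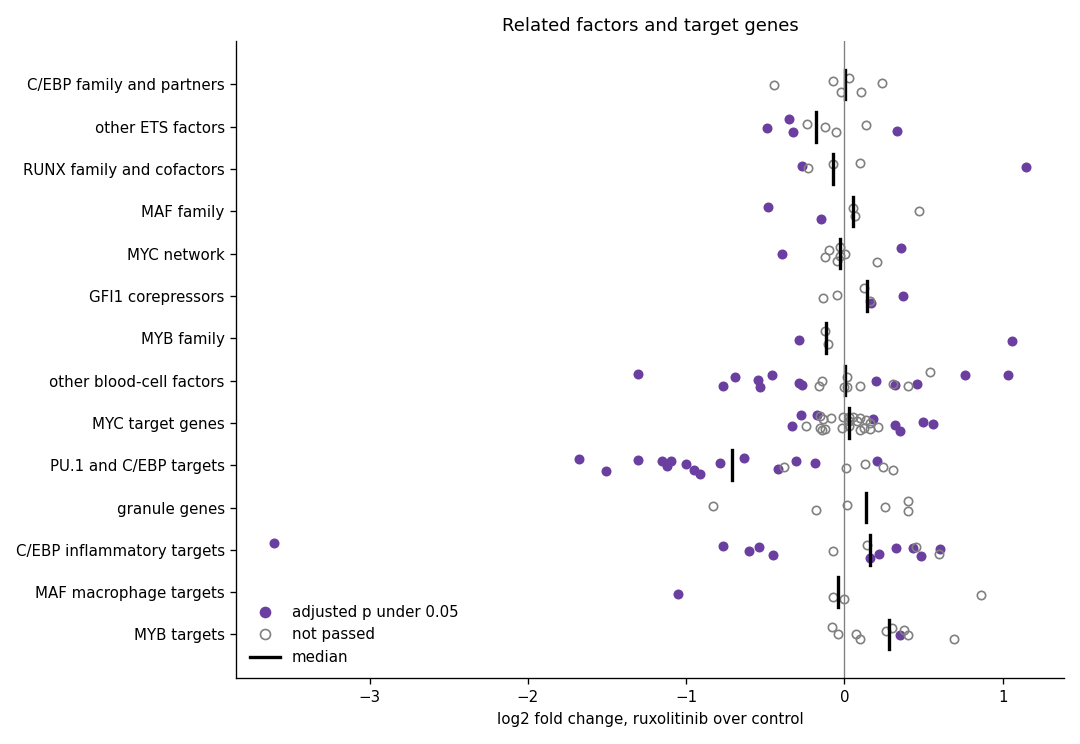
Log2 fold change of ruxolitinib over control (x axis) for each tested gene of 14 lists of related factors and target genes, filled where the edgeR adjusted p was under 0.05 and open otherwise, with the list median as a bar. The PU.1 and C/EBP receptor targets are centred at -0.71, while the MYC targets, at a median of 0.03, and the other blood-cell factors, at 0.01, scatter on both sides of 0.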

How the data were processed

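Raw read counts for each gene were deposited by the authors as 1 table covering the 6 libraries. The build was hg38, per the submitters' processing notes. Aligner, counter, annotation release and strand setting were not given in the sources used here. Counts were tested with edgeR 4.0.16 in R 4.3.3 (TMM scaling, robust quasi-likelihood test, filterByExpr with a minimum count of 10 and total of 15), leaving 14051 genes, with Benjamini-Hochberg adjustment over all of them and a threshold of 0.05. Levels are CPM over the TMM-scaled total, as mean ± SD of 3 libraries. Coordinates, exon lengths and GC content came from GENCODE 29 on GRCh38, with a GC value for 98.7% of the genes tested. The procedure was tested on simulated data.

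The labels do not say that the libraries of a group were separate cultures, so p-values reflect the spread among these 6 samples alone, and that spread may be technical. The batch label pairs the libraries. Deviations of same-numbered libraries correlated at -0.02, -0.19 and -0.10, so only the label supports a pairing. Alternatives were the batch as a block, other scalings and filters, DESeq2 1.42.0, limma 3.58.1 voom, and leaving out each library and batch. A GC correction was added after seeing the data.

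The members and lists were chosen with earlier results of these data known. From each list, up to 4 genes with the smallest adjusted p among those past the threshold are named, and the 2 genes most like a member that passed. Genes outside this rule are said to be so, and some genes and 1 ratio that met it are not reported here.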

Additional observations from a re-analysis of the deposited data

How the results depend on the processing

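Across 20 alternatives the number of genes past the threshold, 4175, stayed within 1.5 times except without both libraries of batch 1, where it was 1983. It was 2915 with the batch as a replicate block and 3290 with DESeq2. Leaving out 1 library or 1 batch pair gave 1983 to 5034. The replicate block changed the call of 0 of the 9 factors.

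Directions that turned belonged to factors that had not passed. CEBPA was 0.023 without the batch 2 pair and 0.047 without ruxolitinib replicate 2, and leaving out 1 library at a time gave -0.18 to 0.047. MAF was -0.019 without control replicate 1, -0.23 without the batch 1 pair and -0.079 without ruxolitinib replicate 1, with -0.079 to 0.42 over single libraries. RUNX1 was -0.013 with library totals alone, -0.0023 without control replicate 3, -0.073 without the batch 3 pair and -0.032 without ruxolitinib replicate 3, with -0.032 to 0.074 over single libraries. The cause was not tested. Over the 9 factors and the list genes that the naming rule gives, without those named after their values were seen, 753 alternatives kept direction and side of the threshold, 47 lost the call, 10 gained one and 9 turned. CEBPB gained a call in 6 alternatives, among them DESeq2 (0.32, adjusted p = 0.0120), and over its 20 the adjusted p ran from 1.21e-10 to 0.553. MAF had the lowest counts, 13 to 30 per library.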
